A study of Macaca mulatta with 12 samples.

Results

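The opioid peptide precursor genes PENK, PDYN and PNOC and the opioid receptor genes OPRM1, OPRK1 and OPRD1 were followed across neuron subtypes, microglia and the other cell classes of the rhesus macaque amygdala. The 6 genes were chosen by name, with earlier results of these data known, and all 6 were among the 19708 gene rows of the deposited count table. Nuclei were isolated from surgically removed, frozen amygdala of Macaca mulatta and read with a 10x Genomics 3′ kit. The 12 labelled samples formed 1 group, with specimen numbers up to 3 and library numbers up to 4 in their titles. The labels name no genotype, treatment or age, so the comparisons lie between cell classes and not between conditions.

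Opioid peptides are cut from larger precursor proteins, stored in dense core vesicles and released with activity. Enkephalins come from PENK, dynorphins from PDYN and nociceptin from PNOC. Enkephalins act mainly on the mu (OPRM1) and delta (OPRD1) receptors and dynorphins mainly on the kappa receptor (OPRK1). All of these receptors couple to inhibitory G proteins, which lower cyclic AMP, open potassium channels and close calcium channels. In the amygdala they are known for their part in pain, fear and reward.

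The table held 26400 nuclei and 151526883 unique molecular identifiers (UMIs, 1 per captured transcript). The 24538 nuclei that remained after 1862 presumed doublets were left out were clustered, and all but 1110 of them fell into 10 named classes, among them 11126 excitatory neurons, 4128 inhibitory neurons, 6010 astrocytes and 181 microglia. By their barcode suffix the nuclei fell into 3 barcode sets of 9201, 8900 and 8299, with median depths of 5025, 5116 and 5009 UMIs. No label ties a barcode set to an animal or sample, and 68 barcodes occurred in more than 1 set. All nuclei therefore counted as 1 sample, no test was possible, and every 95% interval below covers counting error only. Levels are the summed UMIs of a gene per 1000000 UMIs of the class (CPM) and reflect nuclear RNA. They are not scaled for gene length and are compared only within a gene.

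The classes were checked on marker genes. Inhibitory neurons held 1128 CPM of the 4 inhibitory markers, against 44.9 CPM in excitatory neurons. Microglia held 4935 CPM of the 10 microglial markers present, against 41.9 to 208 CPM in the other 9 classes. They also held 1744 CPM of the 7 astrocyte markers and 772 CPM of the 7 oligodendrocyte markers, against 13656 and 15502 CPM in those classes. Excitatory neurons held 1201 CPM of their 5 markers and inhibitory neurons 541 CPM of the same genes, a list that includes the pan-neuronal gene RBFOX3. Of the excitatory nuclei, 5171 fell in a cluster with the highest PROX1, a transcription factor known from granule cells of the dentate gyrus. Results are also given without that cluster where it matters. The members and all listed genes of their pathway were kept out of the clustering.

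Across the 2 neuronal classes, the precursor genes parted by cell type. PNOC and PENK were higher in inhibitory neurons, PDYN was higher in excitatory neurons, OPRK1 was higher in inhibitory neurons, and OPRM1 and OPRD1 differed little between the classes as wholes. Of the 6 genes, 1 passed 2-fold on the excitatory side and 3 on the inhibitory side. Over all 14908 genes measured in this comparison, 8.71% passed 2-fold on the excitatory side and 8.38% on the inhibitory side, or 17.1% in either direction.

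PENK gave 163 UMIs in excitatory and 242 in inhibitory neurons, which is 1.73 CPM (1.47 to 2.01) against 9.73 CPM (8.55 to 11.04). Its log2 ratio of excitatory over inhibitory neurons was −2.496 (−2.79 to −2.20), and −2.56, −2.30 and −2.62 in the 3 barcode sets. A PENK UMI was seen in 5.09% of inhibitory and 1.42% of excitatory nuclei. The excitatory share lay below the 1.60% of astrocyte nuclei with a PENK UMI, although the median astrocyte had 1733 UMIs and the median excitatory nucleus 7917, so no expression is read from the excitatory share.

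PDYN went the opposite way, with 857 UMIs in excitatory neurons (9.07 CPM, 8.48 to 9.70) and 80 in inhibitory neurons (3.22 CPM, 2.55 to 4.00). The log2 ratio was 1.496 (1.16 to 1.84), and 1.60, 1.61 and 1.29 in the barcode sets. A PDYN UMI was seen in 7.01% of excitatory nuclei, 1.82% of inhibitory nuclei and 1.33% of astrocytes. PDYN was thus the only member past 2-fold on the excitatory side.

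PNOC showed the widest gap of the 6 log2 ratios. It gave 95 UMIs in excitatory neurons (1.01 CPM) and 375 in inhibitory neurons (15.1 CPM, 13.6 to 16.7), a log2 ratio of −3.91 (−4.25 to −3.58). In the barcode sets it was −4.53, −3.72 and −3.51. A PNOC UMI was seen in 7.85% of inhibitory nuclei, in 0.854% of the deeper excitatory nuclei and in 0.682% of the shallower astrocytes.

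OPRK1, the kappa receptor gene, was sparse, with 61 UMIs in excitatory neurons (0.646 CPM, 0.494 to 0.830) and 135 in inhibitory neurons (5.43 CPM, 4.55 to 6.43). Its log2 ratio was −3.07 (−3.53 to −2.63), with −2.94, −3.19 and −3.11 in the barcode sets. An OPRK1 UMI was seen in 0.521% of excitatory nuclei, 2.98% of inhibitory nuclei and 0.116% of the shallower astrocytes. The astrocyte level, 0.652 CPM (0.262 to 1.34), overlapped the excitatory interval. Within the excitatory class only 3 of the 61 UMIs came from the PROX1-highest cluster, and the nuclei outside it stood at 0.908 CPM (0.690 to 1.17).

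OPRM1, the mu receptor gene, stood at 33.2 CPM (32.1 to 34.4) in excitatory and 35.9 CPM (33.6 to 38.4) in inhibitory neurons, a log2 ratio of −0.11 (−0.22 to −0.0027). The barcode sets gave −0.033, −0.16 and −0.15. This near balance rested on a single excitatory sub-cluster, E7, described below. Without E7, in an alternative added after the data were seen, excitatory neurons fell to 13.6 CPM and the log2 ratio to −1.40 (−1.53 to −1.28).

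OPRD1, the delta receptor gene, stood at 67.1 CPM (65.5 to 68.8) in excitatory and 56.2 CPM (53.3 to 59.2) in inhibitory neurons, a log2 ratio of 0.26 (0.17 to 0.34). Every barcode set had the same sign, with 0.21, 0.30 and 0.26. The direction turned when the PROX1-highest cluster was left out: OPRD1 stood at 127 CPM in that cluster and 38.3 CPM in the other excitatory nuclei, and the log2 ratio without it was −0.55. The same split gave 9.41 against 44.7 CPM for OPRM1 and 8.34 against 9.43 CPM for PDYN. The PROX1-highest cluster was therefore high in OPRD1 and low in OPRM1 and OPRK1, while its PDYN interval (7.34 to 9.42) overlapped that of the other nuclei (8.69 to 10.2).

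**Figure D1:**
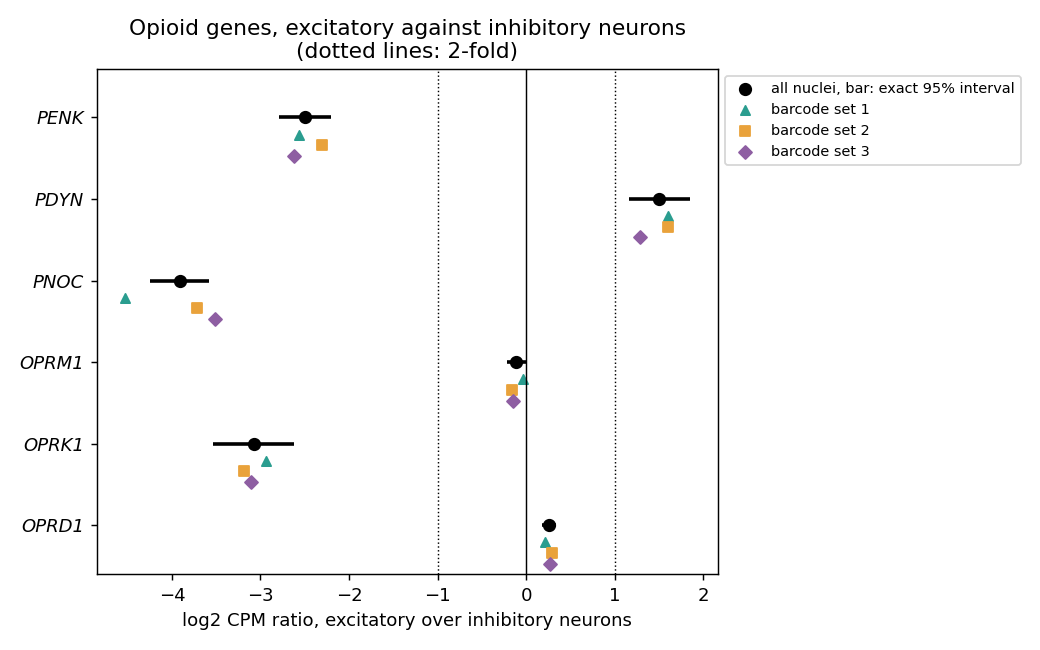
Log2 ratio of CPM, excitatory over inhibitory neurons, for the 6 opioid genes (x axis); black points are all nuclei with exact 95% intervals for counting error, coloured points are the 3 barcode sets and dotted lines mark 2-fold. PDYN lies beyond 2-fold on the excitatory side, PENK, PNOC and OPRK1 beyond 2-fold on the inhibitory side, and OPRM1 and OPRD1 between the dotted lines.

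The neurons were clustered again within each class, which gave 13 excitatory (E1 to E13) and 12 inhibitory (I1 to I12) sub-clusters with at least 20 nuclei in every barcode set. A gene kept out of the clustering was measured in a class if its sub-clusters held at least 100 UMIs. It was called in a sub-cluster at 2-fold over the mean of the others with at least 20 UMIs. In excitatory neurons 4 members were measured and 3 were called in at least 1 sub-cluster, where 21.4% of the 6743 genes so measured were. In inhibitory neurons 5 members were measured and all 5 were called, where 16.0% of 5576 genes were. PNOC and OPRK1 were too sparse in excitatory neurons, and PDYN too sparse in inhibitory neurons, to be measured.

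PENK peaked in I7, a sub-cluster of 356 nuclei with 30.4 CPM of the dopamine receptor gene DRD2 and 9860 CPM of ADARB2, its leading subtype markers by ratio to the other inhibitory sub-clusters. It reached 49.95 CPM there (79 UMIs, 39.5 to 62.3), or 6.99-fold the mean of the other inhibitory sub-clusters, and a UMI was seen in 16.9% of the nuclei. PENK stood at 57.1, 62.3 and 30.6 CPM in the I7 nuclei of the 3 barcode sets, lowest in set 3. I7 was 8.62% of inhibitory nuclei and held 32.6% of their PENK UMIs. Neither DRD2 nor ADARB2 was particular to I7. DRD2 stood at 29.4 CPM in I9 and 26.8 CPM in I5, and ADARB2 was higher in I8, I5, I1 and I3 than in I7.

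Behind I7, PENK stood at 15.2 CPM in I9, 12.2 in I5, 12.1 in I6, 8.13 in I11, 7.43 in I1 and 6.17 in I4, and each of these intervals overlapped the next. The I7 interval did not overlap that of I9 (8.51 to 25.1). PENK then stood at 4.72 CPM in I10, 4.58 in I8, 3.75 in I12, 2.16 in I3 and 2.05 in I2. Every excitatory sub-cluster lay between 0.887 CPM (E9) and 2.59 CPM (E2), and none was called.

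PDYN peaked in E13, the smallest described excitatory sub-cluster, with 72 nuclei. E13 had 3113 CPM of TSHZ2 and 1373 CPM of HTR1F, a serotonin receptor gene. PDYN reached 39.1 CPM there on 23 UMIs (24.8 to 58.7), with a UMI in 26.4% of nuclei, 5.53-fold the mean of the other excitatory sub-clusters. The barcode sets gave 30.3, 40.1 and 47.3 CPM on 6, 8 and 9 UMIs, so each set showed the peak on few molecules.

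The larger part of the excitatory PDYN lay elsewhere. E3, with 1756 nuclei and 984 CPM of the adhesion gene NECTIN3, stood at 14.1 CPM (12.4 to 15.9) and held 264 UMIs, 30.8% of those in excitatory neurons. PDYN then stood at 10.9 CPM in E4, 9.45 in E1, 8.72 in E5, 7.43 in E2, 6.71 in E8, 6.36 in E9, 5.81 in E6, 5.42 in E12, 4.10 in E10, 3.64 in E7 and 2.25 in E11. Neighbours in this order overlapped, while E3 did not overlap E1 (8.01 to 11.1).

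Among inhibitory sub-clusters the highest PDYN level was 15.3 CPM in I10 (8.17 to 26.2), on 13 UMIs. I10 had 389 CPM of NOS1 and 159 CPM of LAMP5. The other 11 inhibitory sub-clusters lay between 1.02 CPM (I11) and 5.71 CPM (I6).

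PNOC was spread more evenly over inhibitory neurons than PENK. It stood at 30.7 CPM in I3 (71 UMIs, 24.0 to 38.8), and a UMI was seen in 13.1% of the I3 nuclei. The leading subtype markers of I3 by ratio were RELN (4699 CPM) and LAMP5 (89.2 CPM), followed by ADARB2 (10733 CPM). The I3 level was 2.09-fold the mean of the others, and the barcode sets gave 38.0, 36.2 and 15.1 CPM. The lower value of set 3 rested on 10 UMIs.

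After I3, PNOC stood at 25.3 CPM in I4, 24.8 in I10, 23.4 in I11, 17.7 in I7, 17.2 in I9, 13.4 in I1, 11.8 in I6, 8.75 in I12, 7.03 in I2, 6.87 in I8 and 5.95 in I5. The intervals of I3, I4, I10 and I11 overlapped, so the order of these 4 is not settled by counting error. Of the excitatory sub-clusters, 12 lay between 0.547 and 1.71 CPM. E13 stood at 8.51 CPM on 5 UMIs (2.76 to 19.8).

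OPRM1 was concentrated in E7, a sub-cluster of 620 nuclei with 1070 CPM of the zinc finger gene ST18 and 149.8 CPM of ERG, a transcription factor gene. It gave 1940 UMIs there, or 320.9 CPM (307 to 335), and was seen in 77.7% of nuclei (74.3 to 81.0). OPRM1 was even across the barcode sets of E7, at 319.7, 318.4 and 325.0 CPM. E7 stood 17.3-fold above the mean of the other excitatory sub-clusters. It was 5.57% of excitatory nuclei and held 61.8% of their OPRM1 UMIs.

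Outside E7, the highest OPRM1 levels lay in inhibitory sub-clusters. I9, a sub-cluster of 160 nuclei with 291 CPM of SST and 62.9 CPM of NPY, stood at 122.7 CPM (101.8 to 146.6), with a UMI in 35.0% of nuclei. It lay 4.18-fold above the other inhibitory sub-clusters, and its barcode sets gave 147.5, 97.1 and 117.5 CPM. I4 followed at 72.1 CPM (63.2 to 82.0), 2.13-fold above the others, with 52.4, 89.6 and 71.6 CPM in the sets. Neither E7 and I9 nor I9 and I4 overlapped, while the I4 interval overlapped that of I8 (60.9 CPM on 133 UMIs). High OPRM1 was not shared by I6, the other sub-cluster led by SST (190 CPM) and NPY (58.9 CPM). OPRM1 stood at 28.6 CPM in I6, 0.75-fold the mean of the other inhibitory sub-clusters.

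The order of OPRM1 went on with 60.9 CPM in I8, 47.9 in E12, 45.6 in E10, 34.6 in I1, 34.2 in E8, 28.6 in I6, 26.4 in I11, 21.8 in I5, 21.2 in I10, 20.6 in E5, 18.6 in I3 and 16.9 in E9. It ended with 15.2 CPM in I2, 12.5 in I12, 11.9 in E13, 11.3 in E6, 10.7 in I7, 9.24 in E2, 9.20 in E1, 7.12 in E4, 4.64 in E3 and 4.49 in E11. E3 (3.71 to 5.72) was thus among the lowest for OPRM1 while it held the largest share of excitatory PDYN UMIs.

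OPRK1 peaked in I4, with 53 of the 135 inhibitory UMIs. The leading subtype markers of I4 by ratio to the other inhibitory sub-clusters were LHX6 (184 CPM) and PVALB (5.55 CPM on 18 UMIs). LHX6 is a transcription factor gene of interneurons from the medial ganglionic eminence. SST stood at 69.4 CPM in I4, near the 61.8 CPM mean of the other inhibitory sub-clusters. OPRK1 reached 16.3 CPM in I4 (12.2 to 21.4), with a UMI in 10.8% of nuclei, 3.78-fold the mean of the others. Thinned to 1000 UMIs per nucleus, the level was 9.15 CPM, with an OPRK1 UMI left in only 4 nuclei. The barcode sets gave 18.1, 9.05 and 23.5 CPM on 19, 11 and 23 UMIs.

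The next OPRK1 levels were 12.5 CPM in I12 and 10.1 CPM in I9, on 10 UMIs each, and both intervals overlapped that of I4. LHX6 stood at 169 to 266 CPM in these 3, but also at 214 CPM in I2, 202 CPM in I6 and 182 CPM in I10, the other sub-clusters high in LHX6. OPRK1 then stood at 5.57 CPM in I2, 3.66 in I8, 2.98 in I5, 2.97 in I1, 2.60 in I3, 2.499 in I6, 2.36 in I10, 1.26 in I7 and 1.02 in I11. Among excitatory sub-clusters E4 stood at 3.02 CPM (2.01 to 4.37) with 28 UMIs, 45.9% of the excitatory total, followed by E10 (2.46 CPM) and E8 (1.76 CPM). No UMI of OPRK1 was counted in E6, E7, E12 or E13.

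OPRD1 had high levels in both neuronal classes. I4 stood highest at 178.8 CPM (164.6 to 194.0), with a UMI in 67.3% of nuclei and 192.4, 176.0 and 167.8 CPM in the barcode sets, 4.05-fold the mean of the other inhibitory sub-clusters. I12, which shared LHX6 (266 CPM) with I4, followed at 148.8 CPM (123 to 178), 3.17-fold the mean of the others, and overlapped I4. The other sub-clusters high in LHX6 were lower in OPRD1, at 62.9 CPM in I9, 56.4 in I6, 23.7 in I2 and 8.26 in I10. By level, I4 was therefore the highest sub-cluster for both the kappa and the delta receptor gene. It was the highest after E7 and I9 for the mu receptor gene. Counting error does not settle these ranks, since I4 overlapped I12 and I9 for OPRK1, I12 for OPRD1 and I8 for OPRM1.

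The highest excitatory OPRD1 levels were those of the PROX1 sub-clusters. E1 stood at 139.9 CPM (134 to 146), E2 at 116.4 CPM and E6 at 101.1 CPM, which was 3.37-, 2.68- and 2.26-fold the mean of the other excitatory sub-clusters. PROX1 stood at 235, 288 and 332 CPM in these 3. The order of OPRD1 within them was the reverse of that of PROX1, with overlapping OPRD1 intervals for E2 and E6. E1 alone gave 2249 UMIs, or 35.5% of the excitatory total, in 23.8% of the nuclei.

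OPRD1 then stood at 78.3 CPM in I8, 65.5 in E8, 64.0 in E3, 62.9 in I9, 56.4 in I6, 40.7 in I11 and in E5, 28.9 in E13, 28.1 in I5, 25.3 in E7, 24.9 in I1, 23.7 in I2, 18.2 in E4 and 13.6 in E12. The lowest levels were 9.02 CPM in E10, 8.26 in I10, 7.87 in E11, 6.96 in I7, 6.95 in E9 and 6.93 in I3. E7, the peak of OPRM1, lay near the middle of the OPRD1 order.

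**Figure D2:**
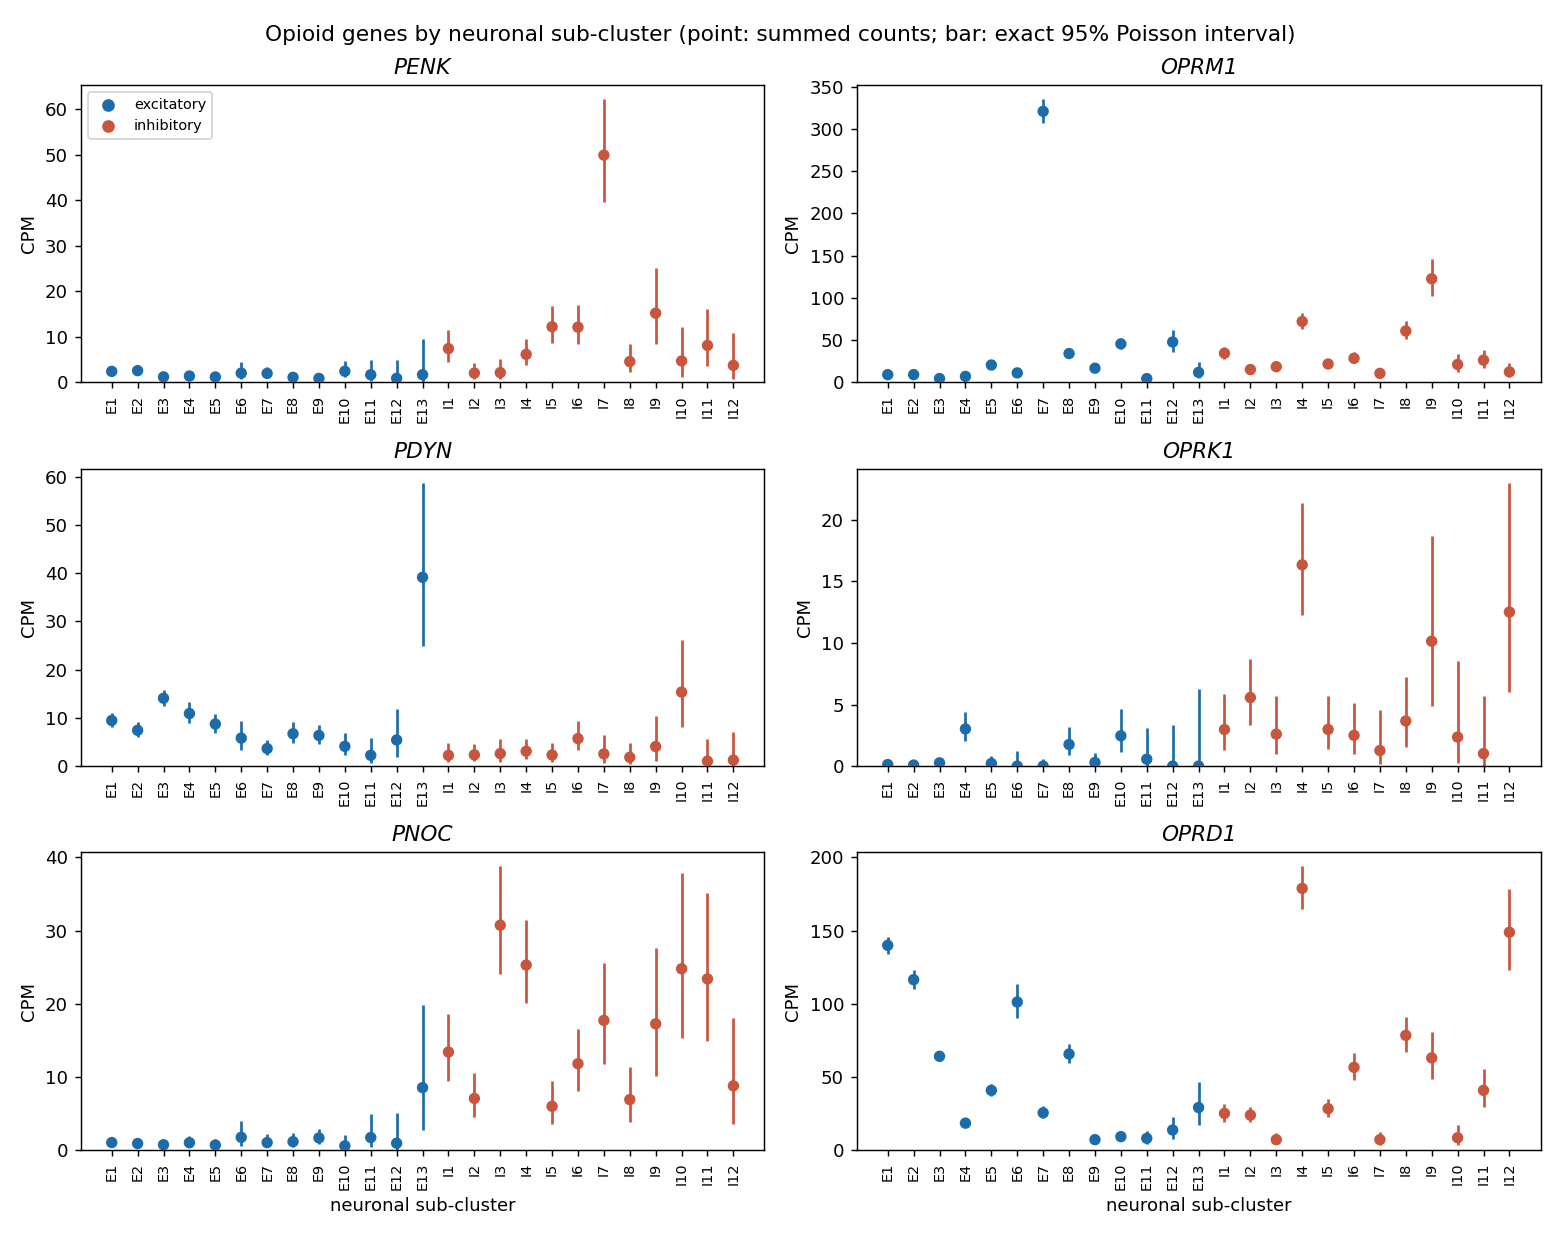
CPM (y axis) of each opioid gene in the 13 excitatory (blue) and 12 inhibitory (red) sub-clusters (x axis), from summed counts with exact 95% Poisson intervals; each panel has its own scale. PENK peaks in I7 at 49.95 CPM, PDYN in E13 at 39.1 CPM, OPRM1 in E7 at 320.9 CPM, and OPRK1 and OPRD1 in I4, while PNOC has several inhibitory sub-clusters with overlapping intervals.

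In a RefSeq gene table of the macaque assembly T2T-MMU8v2.0, which need not be the build of the counts, OPRD1 overlaps EPB41, a membrane skeleton gene, and PDYN, PNOC and OPRK1 each overlap an uncharacterised locus. Counting by strand is not stated in the sources used here, so reads of overlapping genes may not be fully parted. EPB41 stood highest in E12 (132.8 CPM) and E6 (123 CPM), and at 78.3 CPM in I4, 50.02 in I12, 42.5 in E1 and 37.3 in E2. Over the 25 sub-clusters the correlation of OPRD1 with EPB41, on log2(CPM + 5), was r = 0.44. E12, the highest for EPB41, was among the low ones for OPRD1.

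Genes that followed each member over the 25 sub-clusters were sought among 5471 or 5472 genes that had no part in the clustering. The measure was the correlation of log2(CPM + 5), given as a description, since the sub-clusters share libraries. The 25 sub-clusters span both neuronal classes, so for PNOC and OPRK1 r also takes in the gap between the classes. Likeness within a class was not tested. The highest of so many candidates are also high in part by selection. PENK was followed most closely by TRAFD1 (r = 0.86), ASAP3 (0.83) and CHRNA7 (0.81), the gene of the alpha-7 nicotinic receptor subunit, all highest in I7. PDYN was followed by BOC (0.76), CLINT1 (0.74) and IFT80 (0.72), all highest in E13. PNOC was followed by ABAT (0.88), which encodes the enzyme that breaks down GABA, AKNA (0.87) and PTPRM (0.86).

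The likeness was weaker for OPRM1 and OPRD1. OPRM1 was followed by the row ENSMMUG00000005455 (0.64), RGS17 (0.62), which encodes a regulator of G protein signalling, and ANXA3 (0.62), and none of these was highest in E7. OPRK1 was followed by EYS (0.84), SOX6 (0.83), a transcription factor gene of the same interneuron lineage as LHX6, and ZNF41 (0.82). OPRD1 was followed by PTPRJ (0.72), WDR43 (0.68) and LYST (0.67).

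In microglia, OPRM1 was the only member with more than 2 UMIs. It gave 53 UMIs in 181 nuclei, 13, 18 and 22 in the barcode sets, or 235 CPM (176 to 308). A UMI was seen in 23.8% of microglial nuclei (17.8 to 30.6), although their median depth was 1110 UMIs. The level was 9.43-fold the mean of the other 9 classes (24.95 CPM). At least 2-fold higher in microglia were 17.2% of the 6061 genes measured in that comparison, and OPRM1 was the only member measured. A cluster of 92 further nuclei, which microglial markers alone would have named but whose doublet score kept it out, held OPRM1 at 62.6 CPM. With it, an alternative added after the data were seen, the microglial level fell to 128 CPM (101 to 161) on 76 UMIs, or 5.14-fold the mean of the other classes.

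The next classes for OPRM1 were endothelial cells at 40.5 CPM (19.4 to 74.5), inhibitory neurons at 35.9, astrocytes at 34.9 and excitatory neurons at 33.2 CPM. Committed oligodendrocyte precursors stood at 19.8 CPM, oligodendrocyte precursors at 17.5, ependymal cells at 14.9, mural cells at 14.2 and oligodendrocytes at 13.8 CPM. The microglial interval overlapped none of these and lay above those of all neuronal sub-clusters other than E7, whose lower bound it just reached. With the further 92 nuclei the interval overlapped that of I9. Thinned to 1000 UMIs per nucleus, an OPRM1 UMI was seen in 18.5% of microglia, 3.55% of astrocytes, 2.84% of inhibitory and 2.55% of excitatory neurons.

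IPCEF1, which encodes a partner of cytohesin exchange factors, lies next to OPRM1 in the RefSeq table, without overlap. It was high in the same class: 1047 CPM in microglia on 236 UMIs, 10.3-fold the mean of the other classes. The ratio of OPRM1 to IPCEF1 CPM was 0.225 in microglia, 0.222 in endothelial cells, 0.203 in astrocytes, 0.167 in oligodendrocyte precursors, 0.149 in ependymal cells and 0.0534 in oligodendrocytes. It was 0.455 in committed precursors and 0.50 in mural cells, on 5 and 3 OPRM1 UMIs, against 2.52 in excitatory and 2.85 in inhibitory neurons. Over the 8 non-neuronal classes r was 0.80 on log2(CPM + 5), with microglia far above the rest for both genes. Oligodendrocytes, next after microglia for IPCEF1 at 258 CPM, were the lowest class for OPRM1 at 13.8 CPM. Over the 25 neuronal sub-clusters r was 0.27.

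Within microglia, an IPCEF1 UMI was seen in 33 of the 43 nuclei with OPRM1 (76.7%, 61.4 to 88.2) and in 86 of the 138 without it (62.3%, 53.7 to 70.4), at median depths of 1126 and 1107 UMIs. These intervals overlapped. Whether reads of IPCEF1 were counted to OPRM1 in microglia was not tested. The neuronal gene SYT1 stood at 1247 CPM in microglia, beside 1349 CPM in oligodendrocytes and 1110.4 CPM in mural cells, and all 5 excitatory markers had UMIs, at 288 CPM in sum against 115 to 259 CPM in the other non-neuronal classes. The part of RNA from other cells in the microglial OPRM1 level was not tested.

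**Figure D3:**
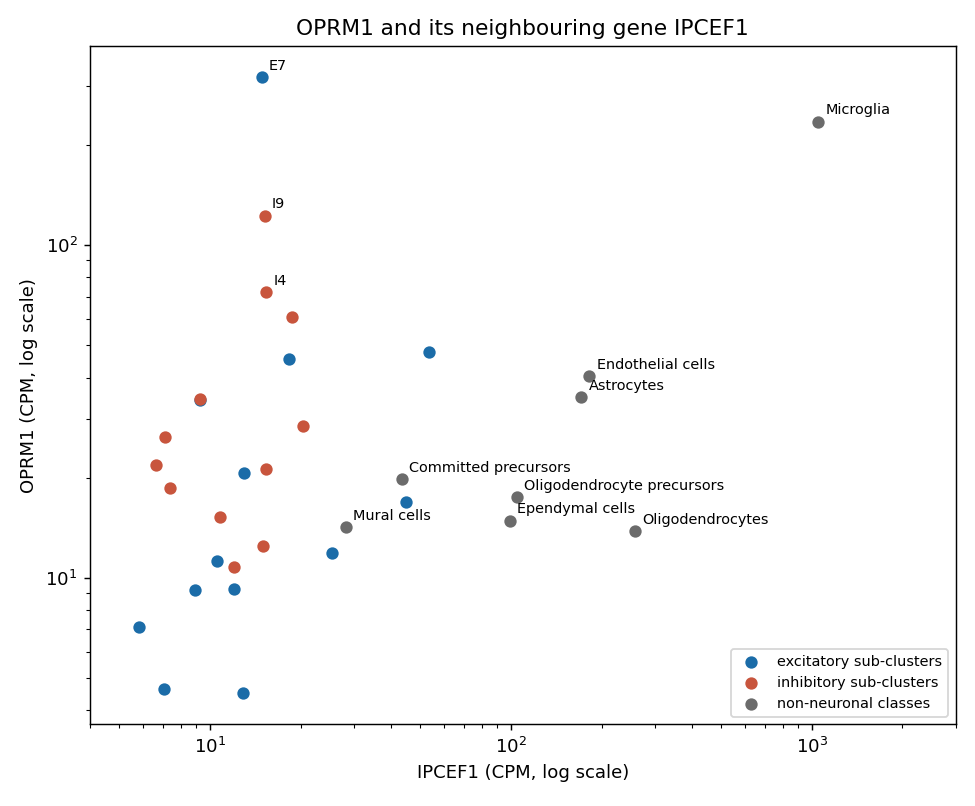
OPRM1 against its neighbour IPCEF1 (both CPM, log scales) in the excitatory (blue) and inhibitory (red) sub-clusters and the 8 non-neuronal classes (grey). E7 and microglia are both high for OPRM1, at 320.9 and 235 CPM, but IPCEF1 is high in microglia alone of these, at 1047 CPM.

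The other members were near the floor in microglia. PENK, PDYN and OPRD1 gave 2 UMIs each (8.88 CPM, 1.07 to 32.1). PNOC and OPRK1 gave 0 UMIs in 181 nuclei, which allows a share of up to 1.66% of nuclei with a UMI. The same limit of 3 counts is 13.3 CPM.

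The remaining non-neuronal classes held low levels with wide intervals. PENK lay between 3.96 CPM in committed precursors and 12.1 CPM in endothelial cells, and at 9.13 CPM in astrocytes (98 UMIs, 7.42 to 11.1), close to the 9.73 CPM of all inhibitory neurons. PDYN lay between 6.46 and 16.2 CPM in the classes that had a UMI and gave 0 in mural cells. The 9.07 CPM of all excitatory neurons lay within that range. PNOC lay between 1.29 and 7.52 CPM, with 0 UMIs in microglia, mural and endothelial cells. OPRK1 was counted in astrocytes (7 UMIs) and ependymal cells (3 UMIs) and in no other non-neuronal class.

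OPRD1 lay between 3.96 and 14.2 CPM in every non-neuronal class, each interval below those of both neuronal classes. In astrocytes a UMI of OPRD1 was seen in 2.21% of nuclei and one of OPRM1 in 5.84%. The levels in glia are not parted from free RNA of lysed neurons, which gives UMIs in nuclei that do not make a transcript.

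**Figure D4:**
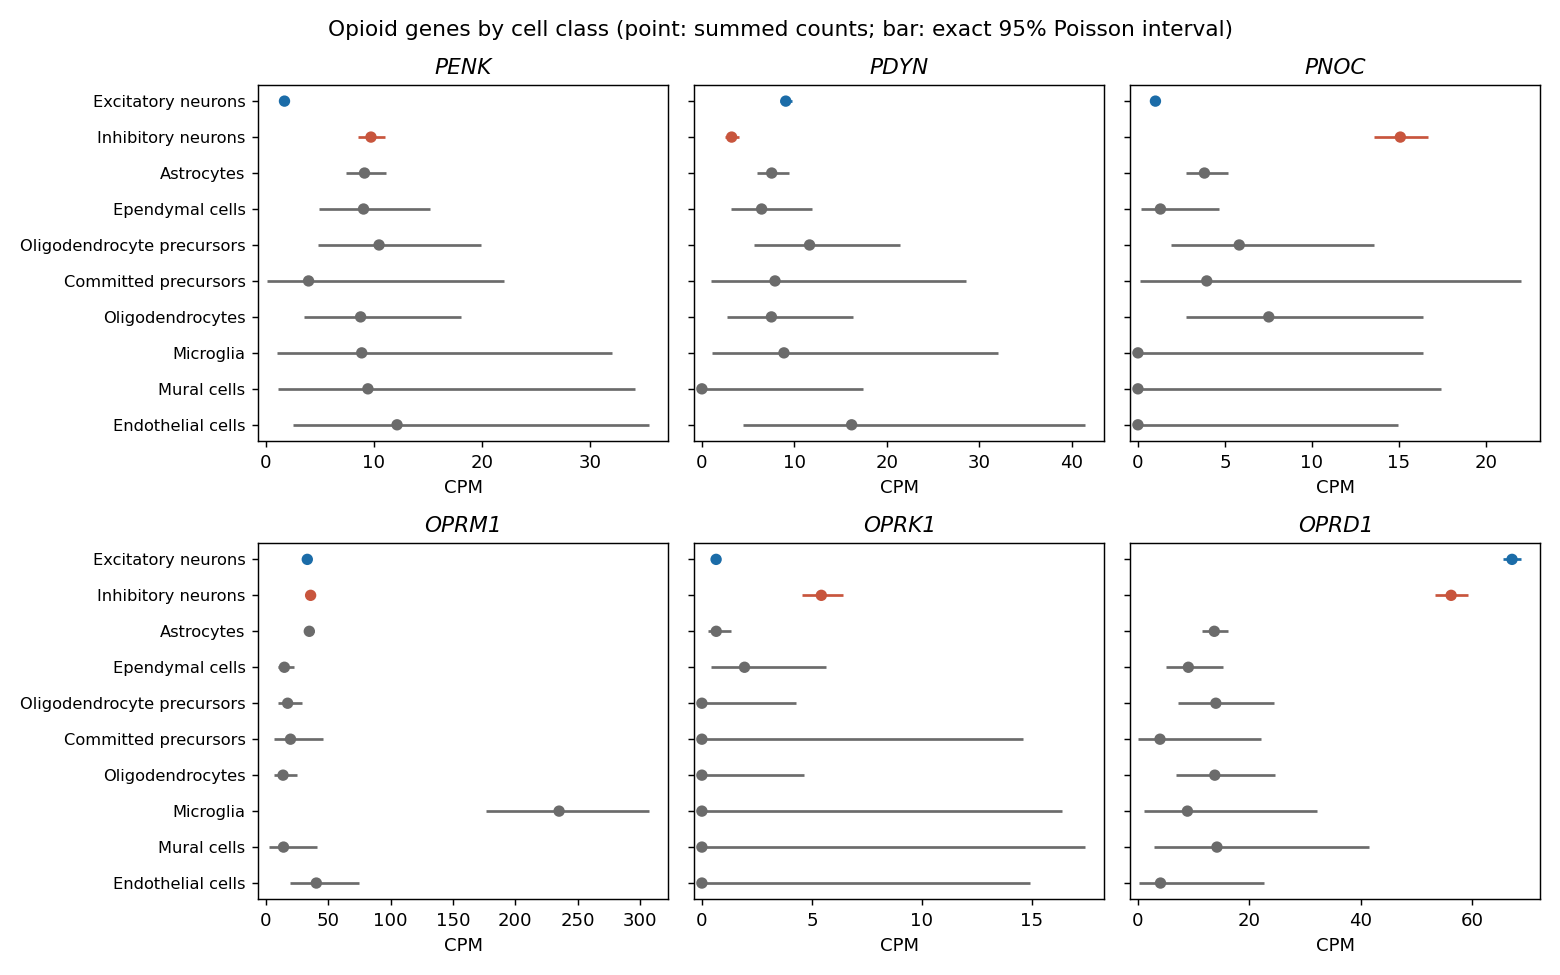
CPM (x axis) of each opioid gene in the 10 cell classes (y axis), from summed counts with exact 95% Poisson intervals; each panel has its own scale. OPRM1 is highest in microglia at 235 CPM, OPRD1 is high in both neuronal classes, and PNOC and OPRK1 are highest in inhibitory neurons.

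Few nuclei showed more than 1 precursor gene. At least 1 of PENK, PDYN and PNOC was seen in 9.08% of excitatory and 14.2% of inhibitory nuclei, and 2 or more in 23 excitatory nuclei (0.207%) and 21 inhibitory nuclei (0.509%). Any single precursor was seen in at most 7.01% of excitatory and 7.85% of inhibitory nuclei. Low joint shares follow from this and do not show that the precursors keep apart. At least 1 of the 3 receptor genes was seen in 46.7% of excitatory and 31.2% of inhibitory nuclei. A precursor together with a receptor was seen in 4.27% and 4.99%. Most transcripts of a nucleus go uncounted and free RNA can add UMIs, so these shares describe detection only.

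Pairs of members were then followed within sub-clusters. In E7 a PDYN UMI was seen in 9 of 482 nuclei with OPRM1 (1.87%, 0.857 to 3.51) and in 9.42% (5.11 to 15.6) of the 138 without it, at median depths of 9636 and 9733.5 UMIs. These intervals did not overlap, and 22 nuclei with PDYN carried the comparison. Thinned to 1000 UMIs, the shares were 0% and 0.433%, with only 2 PDYN nuclei left. The pair is 1 of many followed without a test, so no exclusion of PDYN and OPRM1 is read from it. Among the E7 nuclei with OPRD1, 91.2% also had OPRM1, against 74.7% of those without OPRD1, at median depths of 10058 and 9617 UMIs. Thinned to 1000 UMIs, these shares were 26.3% and 25.5%.

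In I4, where all 3 receptor genes were present, OPRM1 was seen in 24.2% of nuclei with OPRD1 and 23.8% of those without. OPRK1 was seen in 12.2% (8.73 to 16.5) and 7.69% (3.90 to 13.3), and PNOC in 17.0% (12.9 to 21.8) and 11.9% (7.08 to 18.4). All of these intervals overlapped, and the nuclei with OPRD1 were deeper, with a median of 7456 UMIs against 6540. Over all inhibitory neurons OPRK1 was seen in 6.29% of nuclei with OPRD1 and 2.11% of those without, at median depths of 6947.5 and 5335.5 UMIs. Thinned to 1000 UMIs, no nucleus had both, but an OPRK1 UMI was left in only 13 inhibitory nuclei, too few to compare.

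In E1 a PDYN UMI was seen in 6.63% (5.39 to 8.07) of nuclei with OPRD1 and 3.84% (2.85 to 5.06) of those without, at median depths of 6224.5 and 5622 UMIs. Thinned to 1000 UMIs, the shares were 0.870% and 0.910%, on 3 nuclei with both. In I3 a PNOC UMI was seen in 28.6% (14.6 to 46.3) of the 35 nuclei with OPRM1 and 11.9% (9.01 to 15.2) of those without, and these intervals overlapped.

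The wider pathway was taken from lists of 52 genes, of which 49 were in the table and 47 were measured between excitatory and inhibitory neurons. Past 2-fold, 6 stood on the excitatory side and 8 on the inhibitory side, with a median log2 ratio of −0.14 beside −0.10 over all genes measured. The shares past 2-fold over all genes were those given above.

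All 10 genes of precursor processing were measured, and those past 2-fold were 3 on the excitatory side and 0 on the inhibitory side. CTSH, a lysosomal protease gene, had a log2 ratio of 2.33. CPE, which encodes the carboxypeptidase that trims peptide ends, stood at 575 against 153 CPM (1.91). PCSK2, which encodes a convertase that cuts the precursors, stood at 628 against 248 CPM (1.34). The median of the 10 was −0.35, and 6 of the other 7 had ratios below 0, under 2-fold.

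Of 8 measured genes of peptide breakdown, ANPEP, an aminopeptidase gene, was higher in excitatory neurons (log2 ratio 1.21, 0.50 to 2.00). It had only 18 inhibitory UMIs, and the barcode sets gave 0.49, 2.53 and 0.89. MME, which encodes the enkephalin-cleaving neprilysin (−3.69), and ACE, a peptidase gene (−2.47), were lower.

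Of 11 measured genes of G proteins and their regulators, RGS14 was higher in excitatory neurons (2.89), and RGS9 (−1.46), RGS20 (−1.25) and GNAI2 (−1.04) were lower. RGS14 was also a listed excitatory subtype marker. Of 6 genes of desensitisation, GRK5, a receptor kinase gene, was lower (−1.13). Of 10 effectors, the potassium channel gene KCNJ6 was higher (1.06) and the adenylyl cyclase genes ADCY8 (−1.77) and ADCY2 (−1.27) were lower.

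The nociceptin receptor gene OPRL1 stood at 4.84 CPM in excitatory and 3.74 CPM in inhibitory neurons (log2 ratio 0.37), under 2-fold, while its ligand gene PNOC differed by −3.91. POMC, the precursor gene of beta-endorphin, stood at 0.625 and 1.01 CPM, and its direction differed between the barcode sets.

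**Figure D5:**
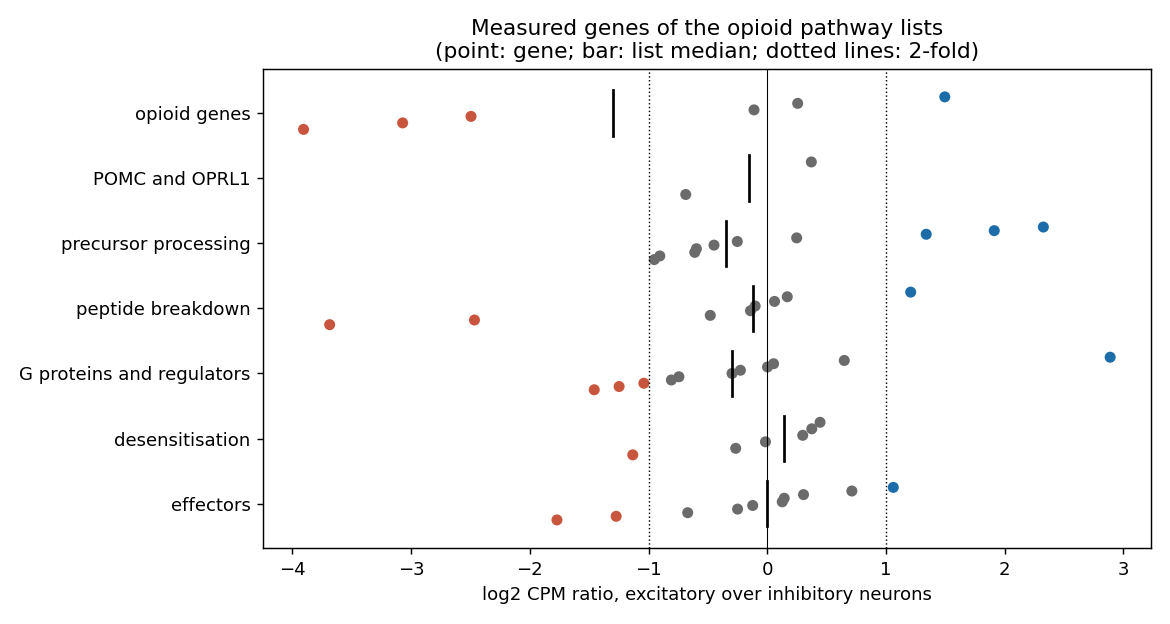
Log2 ratio of CPM, excitatory over inhibitory neurons (x axis), of each measured gene in the opioid gene set and the 6 pathway lists (y axis); bars are list medians and dotted lines mark 2-fold. The 3 processing genes past 2-fold lie on the excitatory side, and the lowest gene of peptide breakdown, MME, lies at −3.69.

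In microglia against the mean of the other classes, 34 of the 52 pathway genes were measured, and 6 passed 2-fold upward and 8 downward, beside 17.2% and 17.5% of all genes measured. The 3 desensitisation genes ARRB2 (7.87-fold), ARRB1 (7.72-fold) and GRK2 (2.52-fold) were higher, of 5 measured, and encode beta-arrestins and a receptor kinase. RGS19 (10.8-fold), RGS14 (4.599-fold) and GNAI2 (3.54-fold) were also higher. The 8 lower genes were ECE1, RGS20, ADCY2, ADCY8, PAM, GRK5, ADCY5 and RGS17.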

How the data were processed

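The authors deposited raw UMI counts for each gene in each nucleus. Per the submitters' processing notes, fastp and Cell Ranger 3.0.0 were used with GRCh38. Since macaque Ensembl identifiers name 5142 of the rows, the build is not settled and no coordinates are given. The kit is version 2 per the labels' protocols.

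Members, lists and markers were chosen with earlier results of these data known. Scrublet scores marked presumed doublets at 0.8% per 1000 nuclei. Clustering used 9873 genes, 2000 of them variable, 30 principal components, 15 neighbours and Leiden resolution 0.5 (scanpy 1.11.5, igraph 0.11.9, Python 3.11.15). Markers other than the pathway gene RGS14 were among these genes, and the other 9835, with the members and pathway genes, were held out. Of 103 markers 99 were in the table. The thresholds for naming classes from markers were chosen with the data in view (GAD1 and GAD2 over 300 CPM, SLC17A7 over 75, SV2B over 45 and RBFOX3 over 600 for neurons; a mean log2 marker ratio over 2.5 and a lead of 0.5 for others; a median doublet score of at most 0.1), and 1110 nuclei stayed unnamed.

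Counts were summed per class and scaled to CPM, with exact 95% Poisson, conditional and Clopper-Pearson intervals (scipy 1.17.1). A gene was measured between classes if the larger side held 50 UMIs or more and each would hold at least 10 at the higher level. Named were the 6 members, up to 4 pathway genes per list past 2-fold between the neuronal classes, the subtype markers, and the 3 held-out genes of at least 500 UMIs most correlated with each member. The pathway genes named for microglia, and SYT1, IPCEF1 and EPB41, were chosen after their values were seen. The calculations were tested on simulated data.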

Additional observations from a re-analysis of the deposited data

How the results depend on the processing

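Thinning to 1000 UMIs per nucleus left out shallower nuclei. The log2 ratios of excitatory over inhibitory neurons became −2.16 for PENK, −4.75 for PNOC, −1.96 for OPRK1, 0.031 for OPRM1 and 0.64 for OPRD1. Those of PNOC and OPRK1 then rested on 6 and 9 excitatory nuclei with a UMI, so their shift is not parted from counting error. After thinning, 9 pathway genes were past 2-fold in place of 14. Without the PROX1-highest cluster the log2 ratios were −2.82 for PENK, −2.58 for OPRK1, 0.31 for OPRM1 and −0.55 for OPRD1. The mean of the nuclei's own CPM gave 0.67 for OPRD1. Without E7, chosen after seeing the data, OPRM1 stood at −1.40. The direction of OPRM1 and OPRD1 between the classes therefore rests on these choices, while PENK, PDYN, PNOC and OPRK1 kept theirs in these alternatives. The other settings (doublets kept, Leiden resolution 1.0, all genes open to clustering, and each barcode set left out) moved no log2 ratio of a member beyond its interval. Peak levels moved for OPRM1 in E7 (337 CPM thinned, 350.3 CPM with doublets kept) and OPRD1 in I4 (210.5 CPM thinned). OPRK1 in I4 was 9.15 CPM thinned, with a UMI left in only 4 nuclei, and OPRD1 in microglia was 0 without barcode set 1. With the unnamed cluster that microglial markers alone would name, added after seeing the data, OPRM1 in microglia was 128 CPM. No paired analysis was possible because the samples form 1 group and the nuclei carry no sample numbers. Depth limits OPRK1 (221 UMIs in all), PNOC (589) and PENK (611), and every level in the 181 microglia.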

Other observations

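OPRL1, the nociceptin receptor gene, was highest in ependymal cells, with 35 UMIs in 793 nuclei, or 22.6 CPM (15.7 to 31.4). The barcode sets gave 9.25, 30.1 and 29.3 CPM, the first on 5 UMIs. Microglia stood at 13.3 CPM (2.75 to 38.9) on 3 UMIs and mural cells at 9.45 CPM (1.14 to 34.1) on 2 UMIs. The next class with more than 3 UMIs was oligodendrocyte precursors at 5.82 CPM (1.89 to 13.6), and astrocytes stood at 5.59 CPM (4.27 to 7.20). The ependymal interval overlapped those of microglia, mural cells and endothelial cells. It overlapped neither that of astrocytes nor those of both neuronal classes.

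Among the nuclei left unnamed, a cluster of 532 nuclei with a median depth of 548.5 UMIs held PENK at 50.1 CPM (17 UMIs), PDYN at 29.5, PNOC at 26.5, OPRM1 at 70.7 and OPRD1 at 29.5 CPM. A cluster of 92 nuclei that microglial markers alone would have named, with a median doublet score of 0.104, held OPRM1 at 62.6 CPM (23 UMIs) and IPCEF1 at 411 CPM, beside 235 and 1047 CPM in the named microglia.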
